A study of Rattus norvegicus with 6 samples.

Results

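The 8 genes described here encode carriers of monocarboxylates (lactate, pyruvate, ketone bodies, short-chain fatty acids and nicotinate) and of glucose. They were grouped as carriers of the proximal tubule, and their site in the kidney was not measured on these arrays. They are the sodium-coupled monocarboxylate cotransporters Slc5a8 and Slc5a12, the proton-linked monocarboxylate carriers Slc16a1 and Slc16a7, the sodium-glucose cotransporters Slc5a1 and Slc5a2, and the facilitative glucose carriers Slc2a1 and Slc2a2. Each was found on the arrays through the transcript accession of its probes in the RefSeq gene table. All 8 were tested, among 11965 genes tested of 15284 named on the array, and 14 probes represented them. The set was chosen by family and by site in the nephron with the NTA comparison already known, in which Slc5a8 had the ninth smallest p among genes with a lower mean in NTA. The members' differences between NTA and water are therefore a description of these arrays, and counts of members past a threshold support nothing.

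The animals were male Sprague-Dawley rats, Crl:CD(SD), 5 weeks old when purchased. The water group (n = 3) received water for 4 weeks, and the NTA group (n = 3) received nitrilotriacetic acid trisodium monohydrate, a chelator of metal ions, at 1000 mg per kg per day over the same 4 weeks. Total RNA of the renal cortex was hybridised to 1-colour Agilent arrays, 1 animal to an array. The cortex was not separated into nephron segments, so a smaller share of a cell type and less RNA per cell cannot be told apart. The arrays lay on 3 slides that were scanned on 2 days. Water 1 and NTA 2 shared a slide, scanned on day 2. Water 2 and water 3 lay on another slide and NTA 1 and NTA 3 on the remaining one, both scanned on day 1. A difference within scan day 1 therefore cannot be told apart from a difference between slides. A difference on the shared slide sets 1 array against 1. Between 68.4% and 73.5% of probes were well above background on an array. The 75th percentile of signal, by which every array was scaled, was 1296.0 to 1316.4 in water and 1132.6 to 1220.2 in NTA. Scaling thus raised every NTA array relative to every water array. All 12 proximal tubule markers were tested, and their mean log2 signal lay between 5.80 and 5.99 on the 6 arrays. Of 7 lymphocyte markers 6 were tested, and their mean varied between -3.39 and -2.70 from array to array. The means of the 2 lists come from different probes and are not set against each other. Of these proximal tubule markers 6 had a log2 difference above 0 and 6 below, from -0.22 to 0.71. All values below are log2 of the processed signal relative to the array's 75th percentile, where 0 is the percentile itself. Probes differ in brightness for reasons other than RNA abundance, so levels are compared between arrays and never between genes.

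In the proximal tubule, filtered glucose is taken up across the brush border, mostly by the high-capacity cotransporter Slc5a2 (SGLT2) in the early S1 and S2 segments and then by the high-affinity cotransporter Slc5a1 (SGLT1) in the late S3 segment. It leaves across the basolateral membrane through Slc2a2 (GLUT2) early and Slc2a1 (GLUT1) late. Filtered lactate and its kin are handled in a similar order, by the low-affinity Slc5a12 (SMCT2) early and the high-affinity Slc5a8 (SMCT1) late, while Slc16a1 (MCT1) and Slc16a7 (MCT2) move monocarboxylates together with protons. Slc5a8 is also known as a gene with a CpG-rich start that is methylated and silenced in some tumours.

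The sequence just before the start of each gene is shown for the 3 monocarboxylate members whose NTA arrays all lay below the water arrays, because these members start in windows of very different composition. The windows are the 250 bases before the start of the gene in RefSeq (build GRCr8), read 5′ to 3′ along the gene, and CpG dinucleotides are in capitals. They lie at chr7:25160030-25160279 (Slc5a8), chr2:194812410-194812659 (Slc16a1) and chr3:117633637-117633886 (Slc5a12), all on the plus strand.
Slc5a8: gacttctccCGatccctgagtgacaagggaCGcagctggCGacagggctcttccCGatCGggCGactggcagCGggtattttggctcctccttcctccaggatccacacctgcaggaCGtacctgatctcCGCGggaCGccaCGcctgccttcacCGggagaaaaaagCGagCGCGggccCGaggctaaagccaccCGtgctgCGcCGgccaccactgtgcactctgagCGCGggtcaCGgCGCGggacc
Slc16a1: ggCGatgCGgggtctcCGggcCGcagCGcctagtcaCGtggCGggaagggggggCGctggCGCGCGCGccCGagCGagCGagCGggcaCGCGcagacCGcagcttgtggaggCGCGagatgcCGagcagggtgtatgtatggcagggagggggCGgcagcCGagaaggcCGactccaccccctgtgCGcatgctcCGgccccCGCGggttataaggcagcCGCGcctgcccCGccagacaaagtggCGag
Slc5a12: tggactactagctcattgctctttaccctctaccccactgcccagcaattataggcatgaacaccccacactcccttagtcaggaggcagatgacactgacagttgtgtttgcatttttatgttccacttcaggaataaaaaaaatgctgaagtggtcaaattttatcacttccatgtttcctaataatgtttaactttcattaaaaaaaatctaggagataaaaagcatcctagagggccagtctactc
The Slc5a8 window held 25 CpG dinucleotides at a GC content of 66.8%, the Slc16a1 window 33 at 74.0%, and the Slc5a12 window 0 at 39.6%. Over the 33465 windows of this length in the table the median was 5 CpG dinucleotides, with quartiles of 2 and 15, and a GC content of 51.2%. Of the other members, Slc2a1 had 17 CpG dinucleotides, Slc5a1 13, Slc16a7 6, Slc5a2 3 and Slc2a2 3. Among the 3 members shown, Slc16a1 held the CpG-richest window of the set and Slc5a12 the only one without a CpG. Any relation of CpG content to the differences was not tested. On both strands, the core of the antioxidant response element, TGACNNNGC, was present once in the Slc16a1 window, on the minus strand with its first base 223 bases before the start, and in no other member's window, against 10.1% of all windows. The TATAAA box was in no member's window, against 12.9% of all windows. These are matches of letters only.

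The apical monocarboxylate cotransporters both had lower means in NTA, Slc5a8 by far the more. Slc5a8 stood at 1.19, 1.35 and 1.05 on water arrays 1 to 3 and at -0.27, -0.23 and 0.35 on NTA arrays 1 to 3. All 3 NTA arrays lay below all 3 water arrays, and NTA 3 was the highest of the NTA arrays. The means were 1.20 ± 0.15 in water and -0.05 ± 0.34 in NTA (SD, n = 3), a log2 difference of -1.25 ± 0.19 (SE of the fit), so the NTA signal was 42.1% of the water signal. Of the 11965 genes tested, 0.117% had a lower difference. The difference was -1.17 within scan day 1 and -1.42 between the arrays that shared a slide. It ranged from -1.45 to -1.14 over 18 alternative ways of processing. Slc5a8 has 1 probe on the array, so no second probe could be set beside it.

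Slc5a12, the early-segment relative of Slc5a8, stood at 2.00, 1.76 and 1.87 in water and at 1.37, 1.62 and 1.71 in NTA. The groups did not overlap, but the gap between the lowest water array and the highest NTA array was small beside the spread within each group. Its log2 difference was -0.31 ± 0.11 (SE), and it was -0.27 within scan day 1 and -0.38 on the shared slide. The dimmer of its 2 probes gave -0.18, with overlapping groups and with water 1 (1.82) well above the other water arrays (1.31 and 1.25).

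The carrier Slc16a1, which moves lactate and ketone bodies with a proton, was lower by an amount between those of the cotransporters. It stood at 2.93, 2.72 and 2.56 in water and at 1.70, 2.16 and 2.14 in NTA. All NTA arrays again lay below all water arrays, here with NTA 1 the lowest. Its means were 2.74 ± 0.19 and 2.00 ± 0.26 (SD, n = 3), a log2 difference of -0.73 ± 0.16 (SE), or 60.1% of the water signal. The difference was -0.72 within scan day 1 and -0.76 on the shared slide, and it rests on 1 probe. Its higher-affinity relative Slc16a7 stood at 1.35, 0.83 and 1.24 in water and at 1.12, 0.98 and 0.93 in NTA. These groups overlapped, with water 2 below every NTA array, and the log2 difference was -0.13 ± 0.15 (SE). Without water 1 the Slc16a7 difference was -0.03, and on the shared slide it was -0.37. Of the 4 monocarboxylate members, then, 3 were lower on every NTA array and Slc16a7 was not, where 7.25% of all genes tested were lower without overlap. Nothing is read from that count, since the members were chosen with the contrast known.

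**Figure D1:**
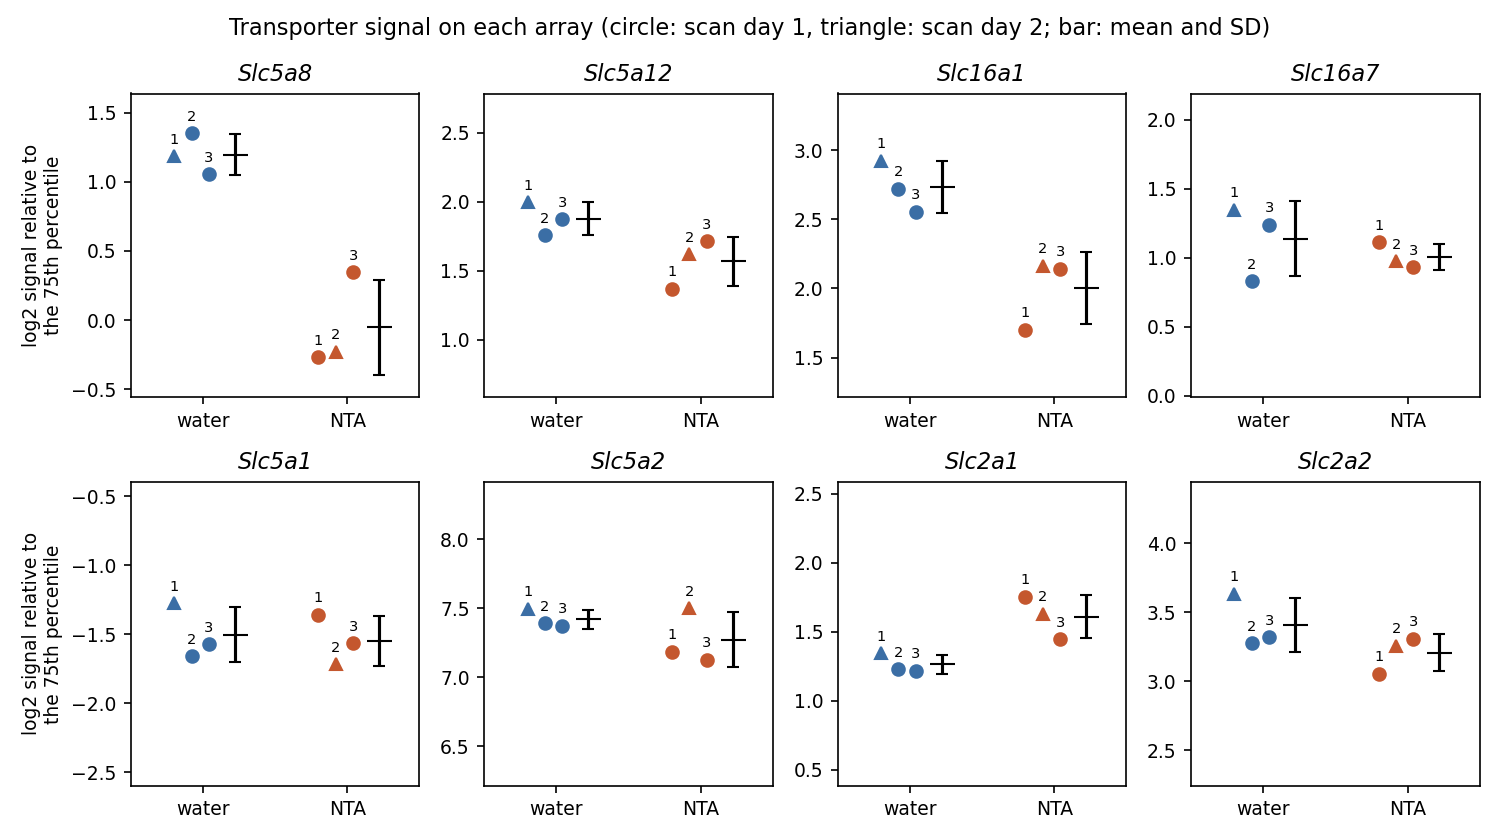
Log2 signal relative to the array's 75th percentile (y axis, the same span of 2.2 in every panel) for each of the 8 transporter genes in water and NTA (x axis), with the replicate number above each array, circles for scan day 1, triangles for scan day 2, and the group mean with its SD beside the points. The NTA arrays lie below all water arrays for Slc5a8, Slc5a12 and Slc16a1 and above them for Slc2a1, and the groups overlap for the other 4 genes.

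The sodium-glucose cotransporters showed no separation of the groups. Slc5a2, the main glucose cotransporter of the early segments and the target of the gliflozin drugs, stood at 7.50, 7.39 and 7.37 in water and at 7.19, 7.50 and 7.13 in NTA. NTA 2 was as high as the highest water array, while the other NTA arrays lay below all water arrays, and the log2 difference was -0.15 ± 0.11 (SE). Its 3 probes gave -0.15, -0.11 and -0.14 and each placed NTA 2 among the 2 highest arrays and NTA 1 and NTA 3 below every water array. The difference was -0.22 within scan day 1 and 0.00415 on the shared slide. Slc5a1, the late-segment cotransporter, stood at -1.28, -1.66 and -1.57 in water and at -1.36, -1.72 and -1.56 in NTA. The groups overlapped throughout, at a log2 difference of -0.04 ± 0.14 (SE). Its second probe gave 0.10, and the difference was 0.15 within scan day 1 and -0.44 on the shared slide, so no direction can be read for Slc5a1.

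The facilitative glucose carriers had means on opposite sides. Slc2a1, the widespread carrier of glucose that is also a target of hypoxia-inducible factors, stood at 1.34, 1.23 and 1.21 in water and at 1.75, 1.63 and 1.44 in NTA. Each NTA array was higher than every water array, the reverse of Slc5a8, Slc5a12 and Slc16a1. The means were 1.26 ± 0.07 and 1.61 ± 0.16 (SD, n = 3), a log2 difference of 0.35 ± 0.10 (SE), or 1.27-fold, with 0.38 within scan day 1 and 0.29 on the shared slide. It rests on 1 probe. Slc2a2, the low-affinity basolateral carrier of the early tubule, stood at 3.63, 3.27 and 3.32 in water and at 3.06, 3.26 and 3.31 in NTA. These groups overlapped, because water 2 lay below NTA 3, and the log2 difference was -0.20 ± 0.12 (SE). It was -0.09 without water 1, the highest array, and -0.38 on the shared slide. Its 3 probes gave -0.20, -0.21 and -0.31, and for the dimmest the groups did not overlap. Some overlaps depended on the scaling. Before it, the processed signal of Slc2a1 was 3341 on water 1 and 3161 on NTA 3, so its groups overlapped. The unscaled groups of Slc2a2 did not overlap (lowest water array 12538, highest NTA array 11503.5). Nor did those of Slc5a2 (lowest water array 215685, highest NTA array 205185).

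**Figure D2:**
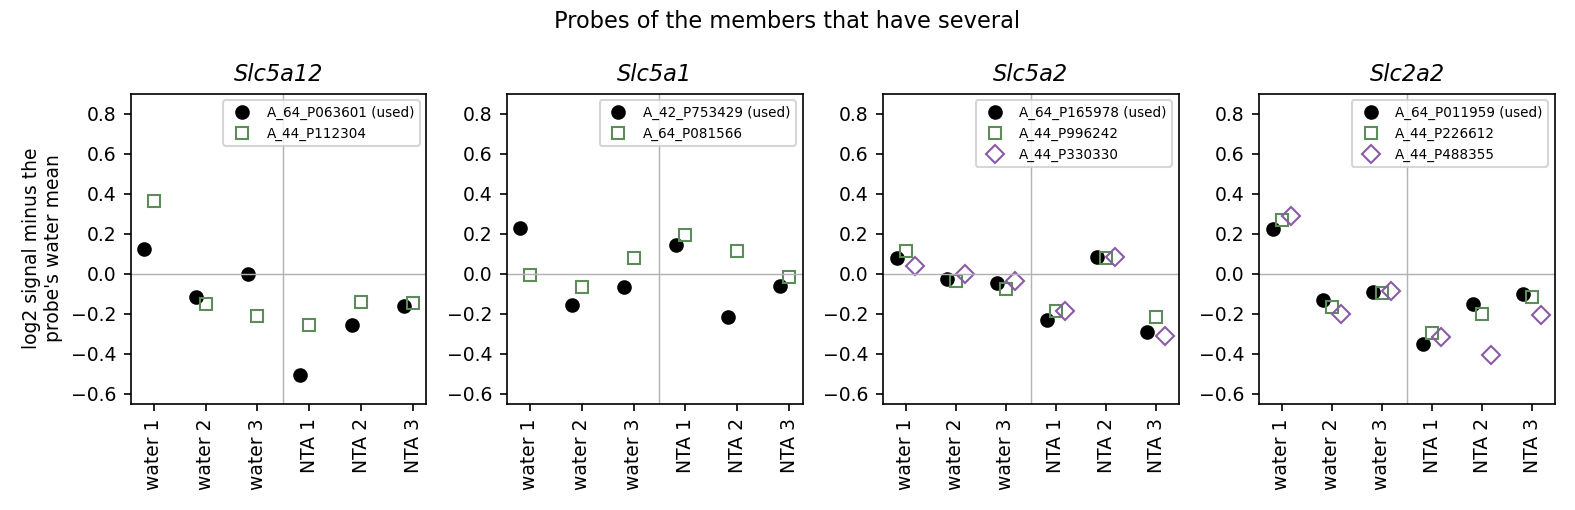
Log2 signal of each probe minus that probe's own water mean (y axis) on the 6 arrays (x axis), for the 4 members with several probes; filled symbols mark the brightest probe, which represents the gene. The 3 probes of Slc5a2 move together from array to array, whereas those of Slc5a1 differ most on water 1 and NTA 2.

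Read as a set, 7 of the 8 members had a lower mean in NTA, where 5211 of all 11965 genes tested were lower and 6754 higher. The median of the members' log2 differences was -0.17, against 0.02 over all genes tested. By limma over all genes with Benjamini-Hochberg adjustment, 0 of the 8 members passed an adjusted p of 0.05, where 0.0752% of genes did. Of all genes tested, 9 passed as higher in NTA and 0 as lower. At an unadjusted p under 0.05, 3 members were lower and 1 higher, against 4.51% and 7.76% of all genes. The groups did not overlap, lower in NTA, for 3 members (Slc5a8, Slc16a1 and Slc5a12) and, higher in NTA, for 1 (Slc2a1), against 7.25% and 13.0% of all genes. The higher and lower shares at an unadjusted p depend on the scaling. They were 929 higher and 540 lower genes as scaled here, 738 and 676 under quantile normalization, and 699 and 689 with arrays scaled on their medians. Because the members were chosen with this contrast known, nothing is read from these counts. On the same scale, 5% of all genes had a log2 difference under -0.32 and 5% had one over 0.44. Slc5a8 and Slc16a1 lay below that range, and the other 6 members lay within it.

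**Figure D3:**
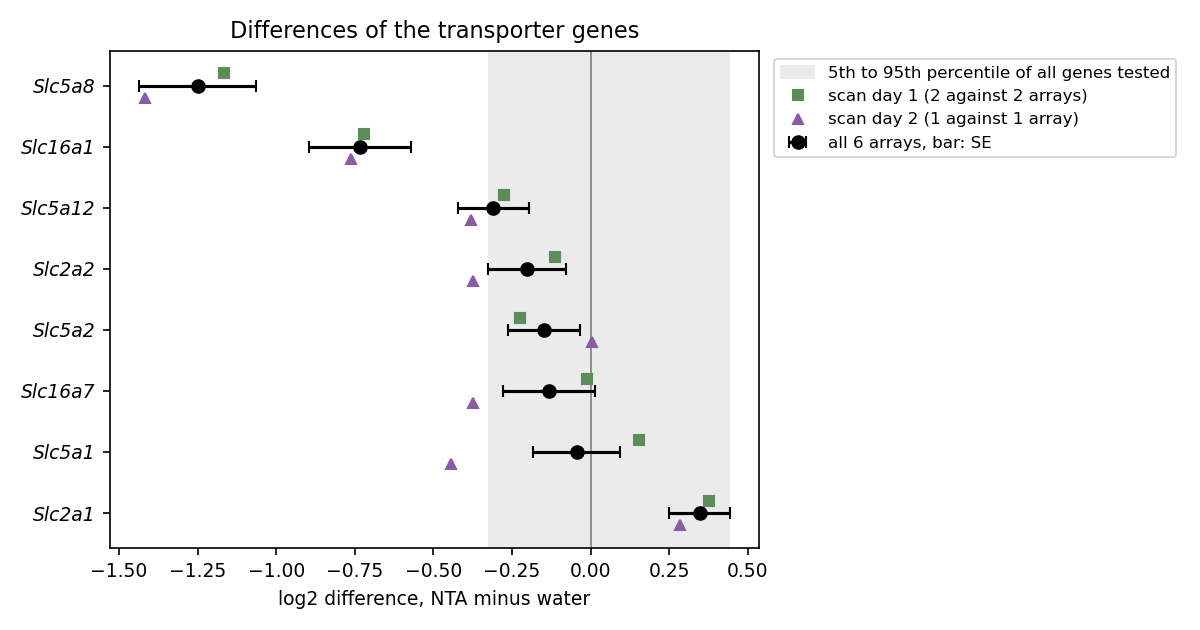
Log2 difference, NTA minus water (x axis), for each member, with the value over all 6 arrays and its SE in black, the value within scan day 1 as squares and the value on the shared slide, scanned on day 2, as triangles; the grey band spans the 5th to 95th percentile of all genes tested. Slc5a8 and Slc16a1 lie left of the band on both days, and Slc5a1 and Slc5a2 have values on both sides of 0.

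Late-segment and early-segment members were then compared. The S3-type members were Slc5a8 and Slc5a1, and the S1-type members were Slc5a12, Slc5a2 and Slc2a2. On each array the mean log2 signal of the S1-type was taken from that of the S3-type, and the index was set to 0 at its water mean. It stood at -0.03, 0.09 and -0.06 in water and at -0.30, -0.71 and -0.27 in NTA. The index was thus lower on every NTA array, on average by 0.43 on the log2 scale, with an SD of 0.08 in water and 0.25 in NTA. Its difference was -0.30 within scan day 1 and -0.68 on the shared slide. The S3-type mean alone differed by -0.65 and the S1-type mean by -0.22. The index turns on Slc5a8, which was picked for its difference. With Slc5a1 alone as the S3-type the index differed by 0.17, in the other direction, at 0.51, -0.11 and 0.12 on the NTA arrays, and with Slc2a1 added to the S3-type it differed by -0.10. No test was made of the index.

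**Figure D4:**
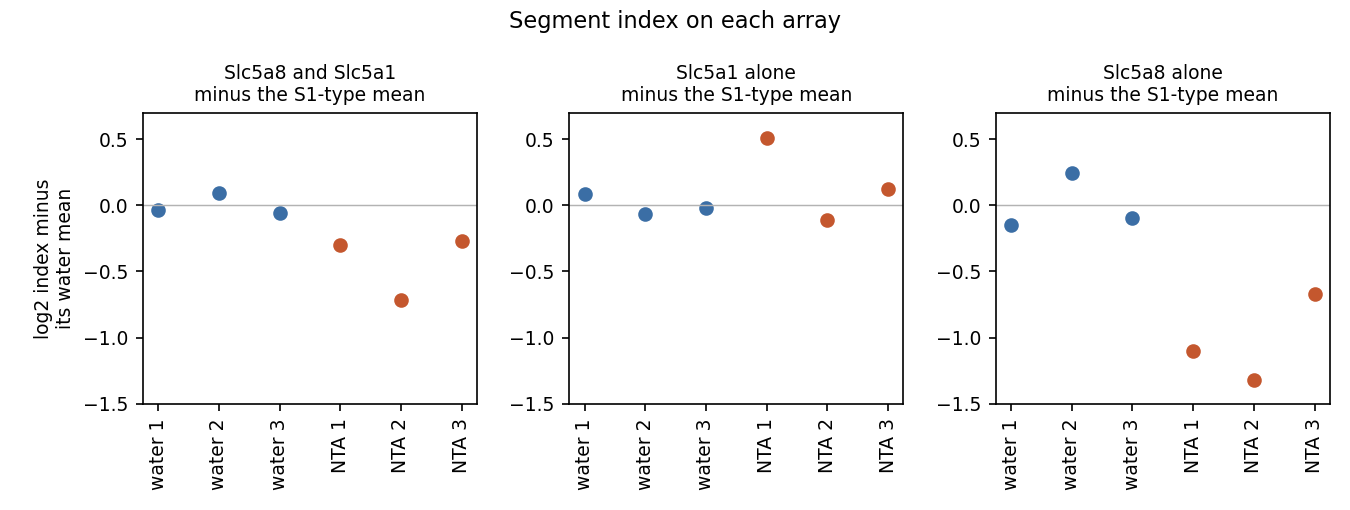
Mean log2 signal of the late-segment members minus that of the S1-type members (Slc5a12, Slc5a2 and Slc2a2), set to 0 at the water mean (y axis), on each array (x axis; blue water, orange NTA), with Slc5a8 and Slc5a1, Slc5a1 alone, or Slc5a8 alone as the late-segment type. The NTA arrays lie below the water arrays where Slc5a8 is included and on both sides of 0 for Slc5a1 alone.

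Segment markers that are not members gave values beside this comparison. Over all 11965 genes tested, 6754 had a log2 difference above 0 and 5211 one below 0. At an unadjusted p under 0.05 by limma, 4.51% of them were lower and 7.76% higher. Of 10 late-segment markers 9 were tested, with 7 above 0, a median log2 difference of 0.22 and 0 past the threshold, by limma with adjustment over all genes, at an unadjusted p under 0.05 also 0. Slc7a13, a cystine and acidic amino acid carrier of S3, stood at 0.95 ± 0.43 (SE), at 0.49 without water 1 and at 1.60 with slide as a fixed block. The protease gene Napsa stood at -0.00 ± 0.05. Of 10 early-segment markers all were tested, with 7 below 0, a median of -0.16 and 0 past the threshold, and 2 lower and 2 higher genes at unadjusted p values under 0.05. Slc22a6, the organic anion exchanger, stood at -0.09 ± 0.11 and Slc3a1, a subunit of the cystine carrier, at 0.25 ± 0.12. The segment of each marker, Slc3a1 among them, was taken as listed and was not measured on these arrays. The urate and anion carriers Slc22a12 (0.87 ± 0.25) and Slc17a3 (0.86 ± 0.11), named after their values were seen, had the highest differences of the early list, and the amino acid carrier subunit Slc7a7 (-0.35 ± 0.07) the lowest. The mean of the early list was 5.16, 5.12 and 5.17 for water and 5.05, 5.35 and 5.21 for NTA, overlapping between groups, so its mean was higher in NTA while its median difference was below 0. Slc5a8, placed in the late segment, had a log2 difference of -1.25, and its relation to the late-segment markers was not tested. The mean of the late-segment list was 2.34, 2.89 and 2.64 for water and 3.12, 2.81 and 2.93 for NTA. The groups overlapped, with NTA 2 below water 2, and water 1 was the lowest array. Markers of other cell types were also measured. The list medians were 0.06 for the thick ascending limb, -0.22 for principal cells of the collecting duct, 0.07 for intercalated cells, -0.14 for podocytes, -0.09 for endothelium and 0.14 for macrophages. They were 0.01 for the distal tubule, 0.11 for thin limb and papilla, 0.09 for fibroblasts and mural cells and 0.03 for lymphocytes. The thin limb and papilla list had 2 higher and 0 lower genes at an unadjusted p under 0.05 by limma. All 8 podocyte markers were below 0, and their mean signal was 1.31 to 1.70 in water and 1.13 to 1.44 in NTA. Their part in the members' differences was not tested.

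Other genes of the same families were measured too. For comparison, 6754 of all 11965 genes tested were above 0. At an unadjusted p under 0.05 by limma, 4.51% of all genes were lower and 7.76% higher. The groups did not overlap for 7.25% as lower and 13.0% as higher. Of 8 other SLC5 cotransporters 6 were tested, with a median log2 difference of 0.16, 5 above 0 and 0 past the adjusted threshold of limma, against 1 higher and 0 lower by an unadjusted p below 0.05. Slc5a6, the sodium-coupled vitamin carrier for biotin and pantothenate, stood at 0.25 ± 0.10 (SE, adjusted p = 0.391 by limma). Slc5a10, a mannose and fructose cotransporter, stood at 0.10 ± 0.42 (adjusted p = 0.953). Of 14 other SLC16 carriers and chaperones 12 were tested, with a median of 0.05, 8 above 0, 0 past the threshold, and 1 higher and 0 lower by an unadjusted p below 0.05. Bsg (basigin), the chaperone that carries Slc16a1 to the membrane, stood at 0.13 ± 0.08 (adjusted p = 0.544). Slc16a11 stood at 0.15 ± 0.09 (adjusted p = 0.557). Slc16a3 (MCT4), the lactate exporter of glycolytic cells and a gene named after its values were seen, stood at -0.91 ± 0.45 (adjusted p = 0.480) with overlapping groups. Slc16a5, named on the same terms, stood at 0.82 ± 0.20 (adjusted p = 0.261), with every NTA array above the water arrays. Of 9 other SLC2 carriers 7 were tested, with a median of 0.32, 6 above 0, 0 past the threshold, and 1 lower and 1 higher by an unadjusted p below 0.05. Slc2a9, a urate carrier, stood at 0.51 ± 0.13 (adjusted p = 0.275), and the fructose carrier Slc2a5 at 0.32 ± 0.25 (adjusted p = 0.639). Slc2a5 is also the median gene of that list, and without water 1 it stood at 0.08.

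Enzymes that use the carried substrates were measured on the same arrays. Again, 6754 of all 11965 genes tested were above 0. At an unadjusted p under 0.05 by limma, 4.51% of all genes were lower and 7.76% higher. The groups did not overlap for 7.25% as lower and 13.0% as higher. Of 23 genes of lactate, pyruvate and ketone body metabolism 22 were tested, with a median log2 difference of 0.02, 12 above 0 and 10 below, and 0 past the threshold, against 3 lower and 4 higher by an unadjusted p below 0.05. Pc, the pyruvate carboxylase that opens gluconeogenesis, stood at 0.29 ± 0.13 (SE, adjusted p = 0.442 by limma), and the mitochondrial pyruvate carrier subunit Mpc2 at 0.04 ± 0.06 (adjusted p = 0.841). Among the lower genes, and named after their values were seen, were Pdk4, a kinase that inhibits pyruvate dehydrogenase (-0.91 ± 0.35, adjusted p = 0.387), and Ldha, a lactate dehydrogenase subunit (-0.37 ± 0.09, adjusted p = 0.234). Bdh1, which interconverts the ketone bodies, stood at 0.86 ± 0.25 (adjusted p = 0.297), also named after its values were seen. The groups of Ldha and Bdh1 did not overlap, and those of Pdk4 did. All 25 genes of glycolysis and gluconeogenesis were tested, with differences from -0.32 to 0.24, a median of 0.04, 0 past the threshold, and 0 lower and 2 higher by an unadjusted p below 0.05. Fbp1, fructose-bisphosphatase, stood at 0.06 ± 0.06 (adjusted p = 0.714 by limma).

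Of 10 scaffolds and regulators of proximal glucose transport 9 were tested, with a median of -0.02, 4 above 0, 0 past the threshold, and 1 lower and 1 higher by an unadjusted p below 0.05. Pdzk1ip1 (MAP17), the small membrane protein that SGLT2 needs for activity, stood at -0.22 ± 0.08 (adjusted p = 0.355 by limma), with groups that did not overlap, and the scaffold Pdzk1 at 0.03 ± 0.07 (adjusted p = 0.884). The transcription factor gene Hnf4a, which drives many proximal tubule genes and was named after its values were seen, stood at 0.02 ± 0.09, with overlapping groups. The scaffold gene Nherf1, also named after its values were seen, stood at 0.32 ± 0.09 (adjusted p = 0.288), with every NTA array above the water arrays.

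**Figure D5:**
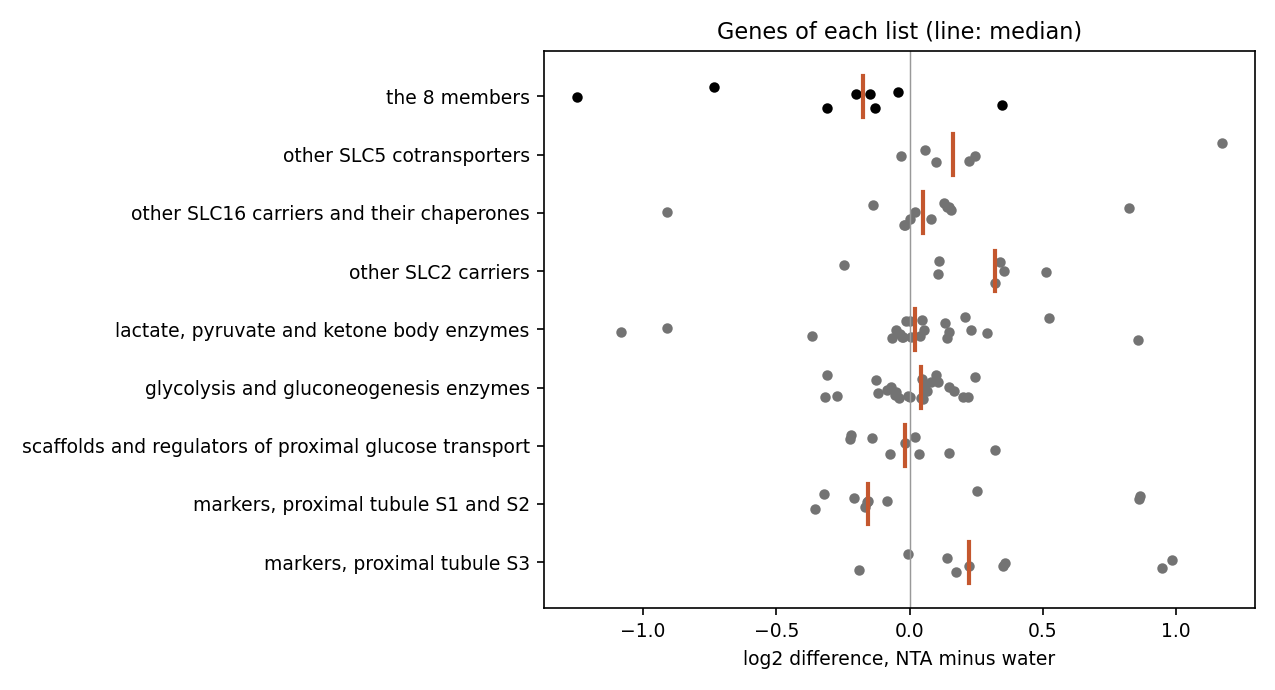
Log2 difference, NTA minus water (x axis), of each tested gene in the member set, in 6 pathway lists and in 2 segment marker lists (y axis; the orange line is the median). The members' median is -0.17, the SLC2 list has the highest pathway median at 0.32, and the glycolysis and gluconeogenesis genes lie between -0.32 and 0.24.

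The members also varied from animal to animal inside the groups. The group mean was removed from each array, and Pearson r was taken over the 6 arrays for all pairs of members. The highest values were those of Slc5a12 with Slc2a2 (0.89), Slc16a1 with Slc2a2 (0.85) and Slc16a1 with Slc5a12 (0.83). Slc5a8 correlated with Slc16a1 at 0.48 and with Slc2a1 at -0.78 by the same measure. These values rest on 6 arrays, less the group means removed, that share scaling, slides and scan days. They are given as a description. By Pearson r over the 6 arrays with the groups left in, the tested genes most like Slc5a8 were Sdc4 (0.992), a cell surface proteoglycan, Lgmn (0.991), a lysosomal protease, Ccnd2 (0.987), a D-type cyclin, Vdac2 (0.984), a porin of the outer mitochondrial membrane, and Timp3 (0.981), an inhibitor of metalloproteinases. Their log2 differences were -0.25 ± 0.07, -0.33 ± 0.07, -0.57 ± 0.11, -0.14 ± 0.05 and -0.31 ± 0.08 (SE), all smaller in size than that of Slc5a8. No other member was among these 5 genes.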

How the data were processed

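Renal cortex RNA from 6 rats was measured on 1-colour Agilent arrays, and per the file headers the images were read with Agilent Feature Extraction 10.7.1.1 (10.7 in the submitters' processing notes). The intensity values are processed signals as the authors deposited them, corrected for background by that software but not scaled across arrays. A ratio table by the authors was deposited too, whose entries equal the processed signal over a constant within 0.072% of the array's 75th percentile. Its scale was found from the values. Its direction is that of signal, and it is not centred.

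Each log2 value is the processed signal on that scale less its array's 75th percentile, taken over 61657 non-control probes. Control and outlier spots were left out. Of the probes, 27460 received 1 gene symbol through RefSeq accessions (GRCr8). Probes well above background on all 3 arrays of a group were kept, and the brightest represented its gene. Well above background on all 6 arrays were all 14 member probes, and none was saturated. NTA was compared with water by limma 3.58.1 (R 4.3.3) across all 11965 genes, two-sided, with Benjamini-Hochberg adjustment at 0.05. The number of arrays limits the precision. The fit was tested on simulated data. Other genes were named by rule: from each pathway list up to 3 past the threshold, or else the 2 brightest, from the segment lists the 2 brightest, and the 5 most like Slc5a8. Some genes that the rule or the lists would name are not reported here. Members and lists were chosen with earlier results of these data known. Of 191 list entries, 180 were named on the array. The series calls the animals biological replicates. Same-numbered water and NTA arrays had deviations from their group means that correlated at 0.07, -0.09 and 0.04, so the numbers were not taken as pairs. Alternatives were other background corrections, scalings, filters, probe summaries and variance models, the deposited ratios, scan day, slide and replicate number as blocks, and each array left out.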

Additional observations from a re-analysis of the deposited data

How the results depend on the processing

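Over 18 alternatives, 0 members and 0 pathway genes passed the adjusted threshold in any, and Slc5a8, Slc5a12, Slc16a1, Slc16a7, Slc2a1 and Slc2a2 kept their direction in all 18. Slc16a1 ranged from -0.82 to -0.58, Slc5a12 from -0.38 to -0.21, Slc2a1 from 0.28 to 0.43, Slc16a7 from -0.37 to -0.03 and Slc2a2 from -0.38 to -0.09. Slc16a7 and Slc2a2 were nearest 0 without water 1. The count over all genes, 9 as reported, was 20 with normexp on the median signal, an alternative added after seeing the data because the files hold no mean signal, 38 with eBayes with trend and robust, 5 with slide as a fixed block, and 0 under quantile normalization, median scaling, no filter on dim probes, scan day as a block and replicate block, and it ranged from 0 to 5 with each array left out. The cause was not tested. The replicate block left the members' differences as they were (Slc5a8 -1.25) and called 0 of them.

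The segment index moved from -0.43 to -0.68 when slide was a fixed block, which leaves only water 1 and NTA 2 to compare, to -0.10 with Slc2a1 in the S3-type, and to 0.17 without Slc5a8. Slc5a1 changed sign with the mean of its probes (0.026) and ranged from -0.138 to 0.0689 with each array left out. Slc5a2 stood at 0.00415 with slide as a fixed block. Signs also changed for genes near 0. Under quantile normalization Mpc2 stood at -0.0415, Fbp1 at -0.0246 and Pdzk1 at -0.029. Averaging all probes put Mpc2 at -0.035, and Napsa was 0.0146 with normexp, and Slc5a10 at -0.0421 and Slc22a6 at 0.0615 with slide as a fixed block. With each array left out, Slc5a10 ranged from -0.184 to 0.453, Slc22a6 from -0.144 to 0.0235, Mpc2 from -0.000223 to 0.0611, Pdzk1 from -0.00261 to 0.0821 and Napsa from -0.0165 to 0.0156.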
